A study of Mus musculus with 144 samples.

Results

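Glomerular endothelial cells (gECs) of wild-type mice were followed from 6 to 18 weeks of age in 23 RNA-seq libraries, which are 23 of the 144 libraries of the series. Members were chosen by label alone, as every WT gEC library: 8 at 6 weeks, 8 at 12 weeks and 7 at 18 weeks, with both sexes at each age. The mice were BTBR +/+ animals that carried at Gt(ROSA)26Sor the reporter allele tm4(ACTB-tdTomato,-EGFP)Luo together with a Cre transgene that turns EGFP on in podocytes. The BTBR ob/ob mice used below for comparison carried the same 2 transgenes at the same 3 ages, and the mesangial and podocyte libraries used below came from WT mice of this kind. Glomeruli were collected with magnetic beads, digested with collagenase and sorted, and gECs were taken as PODXL-positive cells without EGFP, CD73 or CD45. No source names a pool of animals or ties a library to a single mouse, so the p-values measure the spread between these libraries.

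gECs line the glomerular capillaries. They are fenestrated, carry a glycocalyx, and share with podocytes the basement membrane through which plasma is filtered. Their growth and fenestration depend on VEGF-A from podocytes, and during nephron development they lay down type IV collagen and laminin together with podocytes. In mice the weeks after weaning run from late kidney growth into adulthood, and the expression of several imprinted growth genes is high in growing organs and low in adult ones.

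The libraries carried the markers of their cell type. The summed level of 14 gEC markers, in counts scaled to a common library size of 1 M (CPM), was 21201 to 25917 at 6 weeks, 19882 to 27055 at 12 weeks and 22693 to 26343 at 18 weeks. None of the 14 was called at 18 against 6 weeks by edgeR's quasi-likelihood test (0 called, 2 at an unadjusted p under 0.05, 0 with DESeq2), including Kdr, the VEGF receptor (log2 fold change [log2FC] 0.12), Pecam1 (-0.09), Emcn (0.01) and Ehd3 (-0.10). Podxl, the sorting marker, had a log2FC of -0.22 (adjusted p = 0.256) and Nt5e, which encodes CD73, 0.42 (adjusted p = 0.156). Markers of other cells summed to less than gEC markers, and the sums of podocyte, other endothelium and erythroid markers differed between ages. Markers of other endothelium summed to 513 to 745, 371 to 493 and 430 to 580 CPM at the 3 ages, and mesangial markers to at most 275 CPM. The summed level of 12 podocyte markers had a lowest, median and highest value of 479, 1155 and 3050 CPM at 6 weeks, 514, 810 and 3050 CPM at 12 weeks, and 513, 579 and 702 CPM at 18 weeks. The 3 libraries that exceeded 2000 CPM were male 1 and male 2 at 6 weeks and female 3 at 12 weeks. Erythroid markers summed to 7.93 to 75.9, 1.32 to 65.3 and 2.36 to 14.8 CPM at the 3 ages, immune cell markers to at most 30.2 CPM and neutrophil markers to at most 0.581 CPM.

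Depth was 22.3 to 35.0 M counts at 6 weeks, 21.0 to 33.0 M at 12 weeks and 15.4 to 20.5 M at 18 weeks, so the 18-week libraries were the shallowest. The 12-week libraries differed in another way. In the deposited tables the gene length exceeded the effective length by 106 bases at 6 and 18 weeks and by 84 bases at 12 weeks, in every cell type and genotype, which is the pattern of reads of 107 and 85 bases. Age and read length cannot be told apart at 12 weeks. This touches both the 6 to 12 week step and the 12 to 18 week step, but not the comparison of 18 with 6 weeks. The choice of the genes called in both steps, and each value given for a step, rest on the 12-week libraries; the change from 6 to 18 weeks is given beside them. At 12 weeks, 3 libraries (female 2, male 1 and male 2) stood apart from the others on the first principal component (26.3% of the variance). In bulk libraries, fewer cells of a type and less RNA per cell cannot be told apart.

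Of 18053 genes tested, 875 (4.85%) were called at 18 against 6 weeks at an adjusted p under 0.05, 282 higher (1.56%) and 593 lower (3.28%). The first step, from 6 to 12 weeks, had 3026 calls (16.8%; 1629 higher, 9.02%, and 1397 lower, 7.74%), and the second, from 12 to 18 weeks, had 1705 (9.44%; 645 higher, 3.57%, and 1060 lower, 5.87%). Most genes called in both steps went back: of 1058 such genes, 1043 (5.78% of those tested) had opposite signs and 15 (0.0831%) moved in one direction, 10 rising and 5 falling. That count was 8 without male 2 or without male 4 at 18 weeks. A wider count took genes called at 18 against 6 weeks whose steps had the same sign and were each at least 25% of the whole change; it held 361 genes (2%), 139 rising (0.77%) and 222 falling (1.23%). Because both steps share the 12-week libraries, the counts of equal and opposite signs are descriptions only. Of the 282 genes higher at 18 than at 6 weeks, 102 had over 75% of their fitted change in the first step and 26 had 0 to 25% (median 62.8%). In a further 15 the first step had the opposite sign. Of the 593 lower genes these counts were 239, 78 and 54 (median 60.3%).

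The 15 genes called in both steps were Lyve1, Fam129a, Thrb, Gnao1, Cd84, Aldh2, Slc2a3, Stmn2, Trpc1 and C920025E04Rik, which rose, and Sox11, Dlk1, Sparcl1, Cdh13 and 1700052K11Rik, which fell. At the edge of the threshold, the larger of the 2 adjusted p-values was 0.0462 for Cd84, 0.0472 for Sparcl1 and 0.0484 for Gnao1, just inside, and 0.0542 for Zfp423, 0.0611 for Nat6 and 0.0625 for Ehd2, just outside. Of the 15, 14 had no overlap between their 6-week and 18-week libraries, against 1.81% of all tested genes; Lyve1 overlapped. The rule used this contrast, so nothing is read from that count.

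The promoters of 3 of these genes are shown because their genes span the range of behaviour, from the transcription factor with the steepest fall to a nuclear receptor that rose about evenly in both steps. The sequences are from RefSeq, read 5′ to 3′ on the gene's strand over the 250 bases before an annotated start (GRCm38), and capitals mark a cell cycle homology region TTTGAA or a CCAAT box (ATTGG on the other strand) in Sox11 and an E-box CACGTG in the second Thrb window. Dlk1 and the first Thrb window hold none of the motifs searched. The windows lie at chr12:27342719-27342968 (minus strand) for Sox11, chr12:109452573-109452822 (plus strand) for Dlk1, and chr14:17660710-17660959 and chr14:17981394-17981643 (plus strand) for the 2 Thrb starts.
Sox11: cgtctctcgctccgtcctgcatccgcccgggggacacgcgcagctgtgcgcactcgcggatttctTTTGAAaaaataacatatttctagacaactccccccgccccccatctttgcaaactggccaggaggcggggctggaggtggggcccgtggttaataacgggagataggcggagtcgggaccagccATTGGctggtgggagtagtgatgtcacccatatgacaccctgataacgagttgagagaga
Dlk1: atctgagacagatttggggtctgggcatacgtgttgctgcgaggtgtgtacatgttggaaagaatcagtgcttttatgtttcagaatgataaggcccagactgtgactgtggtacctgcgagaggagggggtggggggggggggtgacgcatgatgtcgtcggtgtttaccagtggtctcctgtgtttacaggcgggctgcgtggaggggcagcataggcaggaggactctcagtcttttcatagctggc
Thrb window 1: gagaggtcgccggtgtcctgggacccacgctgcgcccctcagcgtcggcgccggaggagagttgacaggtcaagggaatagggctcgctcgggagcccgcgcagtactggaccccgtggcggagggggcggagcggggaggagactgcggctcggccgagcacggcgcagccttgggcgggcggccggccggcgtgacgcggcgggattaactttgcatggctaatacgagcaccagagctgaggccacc
Thrb window 2: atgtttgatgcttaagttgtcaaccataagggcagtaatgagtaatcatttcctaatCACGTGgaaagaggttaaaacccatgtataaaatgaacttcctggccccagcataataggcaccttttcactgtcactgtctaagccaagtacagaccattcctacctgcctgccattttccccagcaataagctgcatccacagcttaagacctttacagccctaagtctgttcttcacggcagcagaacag

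A promoter window was found for 114 of the 139 rising genes, 163 of the 222 falling genes and 11715 of all tested genes. Searched on both strands, the E-box CACGTG stood in at least 1 window of 10.5% of the rising, 11% of the falling and 11.2% of all genes with a window, the cell cycle homology region TTTGAA in 13.2%, 14.1% and 14.7%, and the interferon motif (a pair of GAAA separated by any 2 bases) in 3.51%, 4.91% and 3.79%. The D-box TTATGTAA stood in 0%, 0% and 0.717%. CCAAT stood in at least 1 window of 41.2% of the rising, 54.6% of the falling and 42.6% of all genes with a window, and a pair of CCAAT boxes, each of which also counts as a CCAAT match, in 11.4%, 22.7% and 16.3%. These shares are descriptions, and no match says only that the letters are not in the window.

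**Figure D1:**
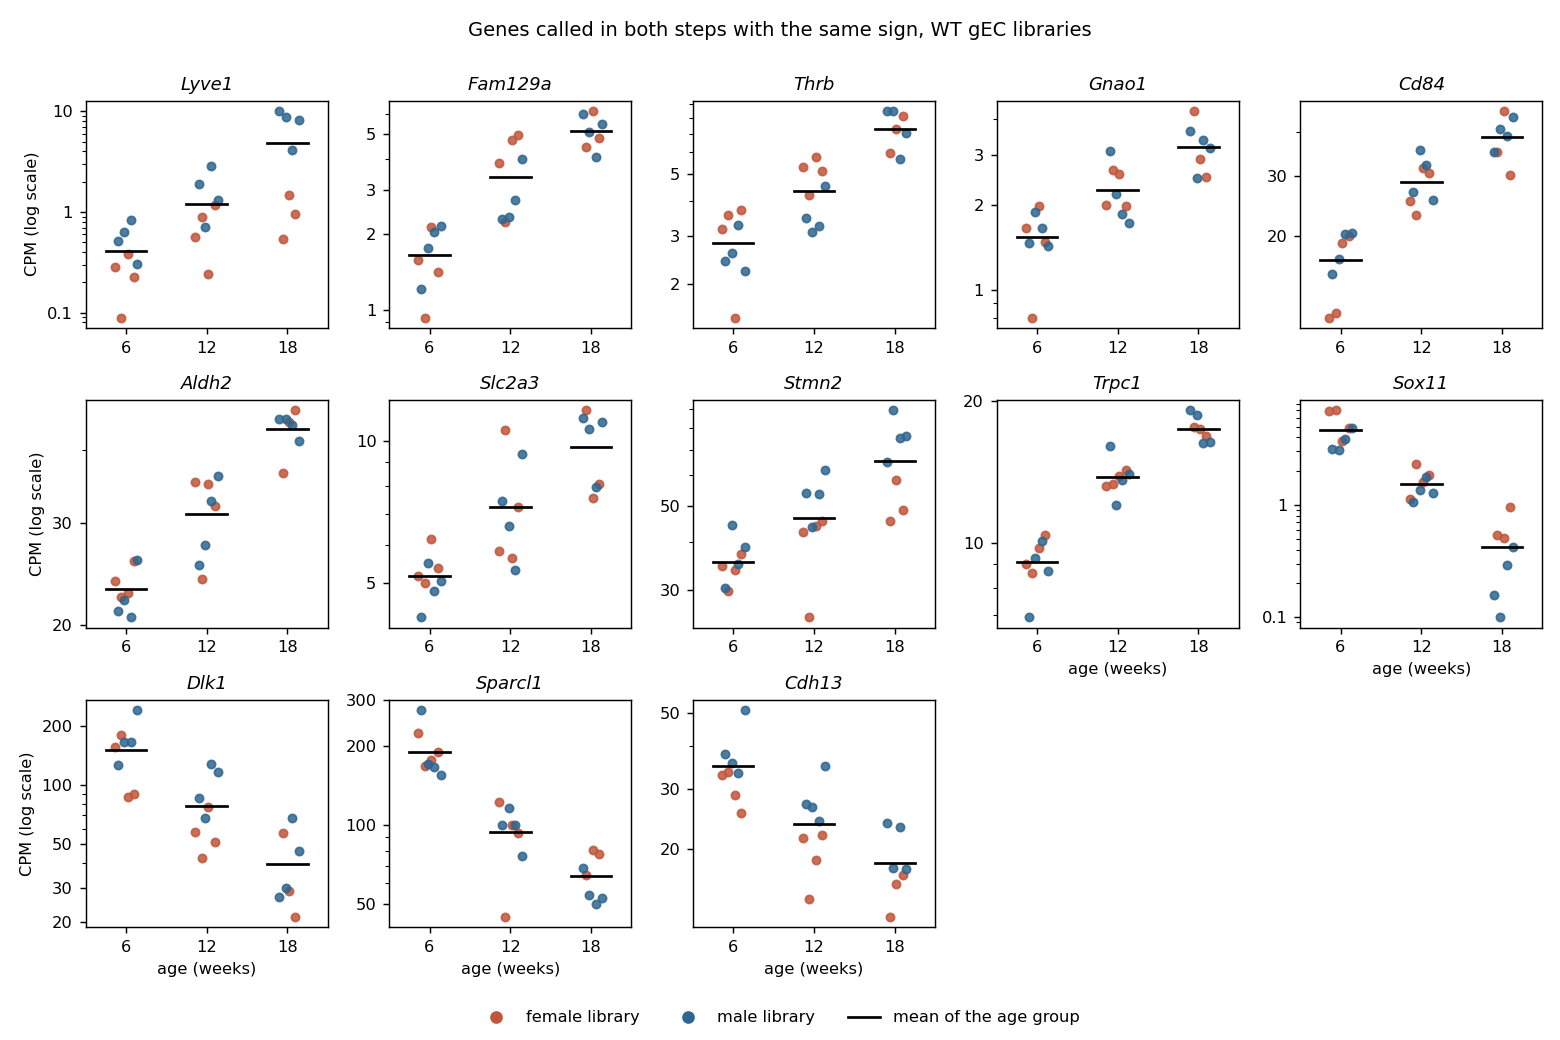
Expression of the 13 named genes that were called in both steps, in CPM on a log axis, against age in weeks; each point is 1 WT gEC library (females and males coloured apart) and the bar is the group mean. Trpc1 and Sox11 show no overlap between any 2 ages, while in Lyve1 the 18-week females reach down to 0.535 CPM, within the 6-week range.

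Among the rising genes, a nuclear receptor and an aldehyde-detoxifying enzyme each rose in both steps, by similar fitted amounts. Thrb, which encodes thyroid hormone receptor beta (ENSMUSG00000021779; mm10 chr14:17660261-18038090), had a lowest, median and highest level of 1.52, 2.89 and 3.70 CPM at 6 weeks, 3.1, 4.36 and 5.79 CPM at 12 weeks and 5.70, 7.26 and 8.47 CPM at 18 weeks. The 6-week and 18-week libraries were fully apart. It rose by 0.61 ± 0.17 (log2FC ± SE, adjusted p = 0.00704) in the first step and 0.78 ± 0.17 (adjusted p = 0.00133) in the second, which made 1.40 ± 0.17 (2.64-fold, adjusted p = 3.37e-07) over both. Aldh2, the mitochondrial aldehyde dehydrogenase (chr5:121566027-121593824), had 20.7, 22.6 and 25.9 CPM at 6 weeks, 24.1, 32.4 and 36.2 CPM at 12 weeks and 36.6, 44.8 and 46.8 CPM at 18 weeks. Every 18-week library exceeded every 12-week library. Aldh2 rose by 0.43 ± 0.09 and 0.48 ± 0.10 in the 2 steps and by 0.91 ± 0.10 in all (1.88-fold, adjusted p = 5.4e-08).

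Trpc1, a subunit of calcium-permeable cation channels (chr9:95705082-95750375), was separate at every age. It had 6.94, 9.15 and 10.4 CPM at 6 weeks, 12.0, 13.7 and 16.1 CPM at 12 weeks and 16.3, 17.5 and 19.1 CPM at 18 weeks, so no 2 ages overlapped. Its log2FC was 0.60 ± 0.08 (adjusted p = 1.06e-07) in the first step, 0.34 ± 0.08 (adjusted p = 0.00259) in the second and 0.95 ± 0.08 (adjusted p = 5.03e-11) over both. Thrb and Aldh2 were called in both steps under all 35 settings tried, and Trpc1 under 34.

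Lyve1, a hyaluronan receptor of lymphatic and some other endothelium and of some macrophages (chr7:110850607-110863239), had the steepest rise of the 10. Its lowest, median and highest values were 0.0891, 0.341 and 0.829 CPM at 6 weeks, 0.244, 1.03 and 2.89 CPM at 12 weeks and 0.535, 4.13 and 10.1 CPM at 18 weeks. It rose by 1.54 ± 0.49 (adjusted p = 0.0233) and 1.88 ± 0.47 (adjusted p = 0.00675), or 3.42 ± 0.51 in all (10.7-fold, adjusted p = 1.85e-05). The 18-week males had 4.13 to 10.1 CPM and the females 0.535 to 1.47 CPM. The change was 3.76 in males (adjusted p = 2.82e-05) and 1.99 in females (adjusted p = 0.0928), and the difference between the sexes, 1.77 ± 0.76, was not called (adjusted p = 1). Among the marker genes of these cells, Prox1, the transcription factor of lymphatic endothelium, had means of 19.0, 25.1 and 14.0 CPM (18 against 6 weeks, log2FC -0.43, adjusted p = 0.476), and Csf1r, the macrophage growth factor receptor, had means of 3.99, 3.96 and 2.84 CPM (-0.46, adjusted p = 0.472). Their part in the Lyve1 result was not tested.

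Of the other rising genes, Fam129a, a stress-responsive gene also called Niban1, had 0.936, 1.68 and 2.15 CPM at 6 weeks, 2.25, 3.29 and 4.96 CPM at 12 weeks and 4.07, 5.08 and 6.19 CPM at 18 weeks (1.64 ± 0.20 over both steps, adjusted p = 3.22e-07), with no overlap between 6 and 12 weeks. Stmn2, a microtubule-destabilising stathmin, went from a median of 34.9 to 44.7 and 65.0 CPM (0.85 ± 0.12, adjusted p = 5.61e-06). Its 12-week libraries ranged widely, from 25.4 to 61.9 CPM, and its expected counts were not whole in 34.8% of the gEC libraries. Gnao1, a G protein alpha subunit, went from a median of 1.57 to 2.09 and 3.16 CPM (1.04 ± 0.17, adjusted p = 6.78e-05). Cd84, a SLAM family receptor, went from 18.2 to 28.7 and 39.0 CPM (1.19 ± 0.14, adjusted p = 2.97e-07) and Slc2a3, the glucose transporter GLUT3, from 5.09 to 6.92 and 10.6 CPM (0.91 ± 0.14, adjusted p = 2.31e-05). Cd84 and Slc2a3 share reads with other entries: their expected counts were not whole in 100% and 97.8% of the gEC libraries, and on the TPM scale the second step of Slc2a3 had the opposite sign (-0.17). C920025E04Rik, annotated as an unprocessed pseudogene on chromosome 17, went from a mean of 8.39 to 17.8 and 27.6 CPM (1.73), and its counts were not whole in 95.7% of the gEC libraries.

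From the wider count 3 genes were named by the same ranking, and each passed at 18 against 6 weeks without being called in both steps. Esr2, which encodes estrogen receptor beta, had a median of 3.00, 4.19 and 7.62 CPM at the 3 ages and rose by 1.49 ± 0.31 (adjusted p = 0.00161). Its 6-week libraries lay between 1.10 and 4.47 CPM and its 18-week libraries between 5.18 and 10.8 CPM, without overlap. The expected counts of Esr2 were not whole in 45.7% of the gEC libraries. Hpcal4, a neuronal calcium sensor gene, rose by 1.69 ± 0.30 (adjusted p = 0.000225), from a median of 0.969 to 2.15 and 2.75 CPM. Hydin, a component of motile cilia, rose by 1.33 ± 0.29 (adjusted p = 0.00359), from 1.70 to 3.09 and 5.38 CPM, with ranges that overlapped.

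The falling genes were led by a transcription factor and an imprinted gene of growing tissues. Sox11, a SoxC factor of embryonic and fetal organs (chr12:27334264-27342574), had a lowest, median and highest level of 3.07, 4.37 and 6.95 CPM at 6 weeks, 1.06, 1.47 and 2.34 CPM at 12 weeks and 0.0996, 0.421 and 0.959 CPM at 18 weeks. No 2 ages overlapped. Sox11 fell by 1.59 ± 0.34 (adjusted p = 0.000624) and then by 1.86 ± 0.40 (adjusted p = 0.00109) on the log2 scale, and was 10.9-fold lower at 18 than at 6 weeks (-3.45 ± 0.40, adjusted p = 2.51e-07). Dlk1, an imprinted gene for a membrane protein related to Notch ligands (chr12:109452823-109463336), had 87.2, 161 and 241 CPM at 6 weeks, 42.2, 72.6 and 128 CPM at 12 weeks and 21.3, 29.9 and 68.0 CPM at 18 weeks. It fell by 0.98 ± 0.21 and 0.98 ± 0.23 in the 2 steps, and was 3.88-fold lower over both (-1.96 ± 0.23, adjusted p = 2.51e-07). Neighbouring ages overlapped, while 6 and 18 weeks did not. Both genes were called in both steps under all 35 settings.

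Sparcl1, a secreted relative of the matrix protein SPARC (chr5:104079111-104113733), had 155, 175 and 275 CPM at 6 weeks, 44.7, 100 and 123 CPM at 12 weeks and 50.2, 64.4 and 80.2 CPM at 18 weeks. The 6-week libraries stood apart from all later ones. It fell by 1.02 ± 0.18 (adjusted p = 4.29e-05) and 0.56 ± 0.18 (adjusted p = 0.0472), and was 2.99-fold lower in all. Cdh13, which encodes the membrane-anchored T-cadherin, had 25.6, 33.6 and 50.8 CPM at 6 weeks, 14.3, 23.0 and 34.9 CPM at 12 weeks and 12.7, 17.5 and 23.9 CPM at 18 weeks (-0.97 ± 0.11, adjusted p = 2.51e-07). The expected counts of Cdh13 were not whole in 13.0% of the gEC libraries. H19, an imprinted long noncoding RNA from the Igf2 locus (chr7:142575529-142578143), belonged to the wider count. It had 2.52, 5.31 and 9.97 CPM at 6 weeks, 0.221, 0.649 and 1.75 CPM at 12 weeks and 0.159, 0.368 and 0.773 CPM at 18 weeks. H19 was 13.2-fold lower at 18 than at 6 weeks (-3.72 ± 0.47, adjusted p = 4.99e-07), and the step from 12 to 18 weeks was not called (-0.96, adjusted p = 0.213). 1700052K11Rik, annotated as an antisense RNA on chromosome 11, went from a mean of 8.84 to 7.06 and 5.55 CPM (-0.66), with counts that were not whole in 100% of the gEC libraries; no source says that counting used strand.

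The falling side also held genes whose level is far higher in podocytes. Of the 12 podocyte markers 4 fell between 6 and 18 weeks (33.3%, against 3.28% of all genes). Among them were Synpo, which encodes the actin-binding synaptopodin (-1.38, adjusted p = 0.00364), the transcription factor gene Foxc2 (-1.06) and Clic3 (-1.95). The median of the 12 was -1.36, and 0.13 with the summed podocyte marker level as a covariate. That covariate is made of these same 12 markers, so it takes out their shared change by construction, and nothing is read from the 0.13. With it 1 of the 12 was still called lower, and 2 were without the 3 libraries over 2000 CPM. Synpo kept its call under both settings. Among markers of other cells, the globin gene Hba-a2 fell (-2.72, adjusted p = 0.0229; 0.0966 with the covariate) and the mesangial marker Serpine2 rose (0.63, adjusted p = 0.0134). Genes with over 5 times the gEC level in the WT podocyte libraries made up 4.82% of all tested genes, none of the 139 rising genes of the wider count, 52 of its 222 falling genes (23.4%) and none of the 15. Of the named falling genes 7 were of this kind, with podocyte levels 17.8 to 42.5 times those in gECs: Car12, Hs3st6, Sall1, Fzd2, Auts2, Ablim3 and Rhpn1, with log2FC from -2.52 to -1.38. With the summed podocyte marker level as a covariate their log2FC lay between -0.59 and -0.01, and none was called, nor was any without the 3 libraries over 2000 CPM. With the same covariate Sox11 (-3.70), Dlk1 (-2.01), Sparcl1 (-1.62), Cdh13 (-0.98) and H19 (-3.93) were each still called. Their podocyte levels were between 0.00037 and 0.0192 times those in gECs. They and the 7 genes were thus set apart by podocyte level beforehand, and nothing is read from the contrast. All 15 genes remained called at 18 against 6 weeks with the covariate and without those libraries. Of the 139 rising genes 97 and 89 did, of the 222 falling genes 125 and 131, and of all 875 genes 497 and 496. Both settings were chosen after the data were seen.

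**Figure D2:**
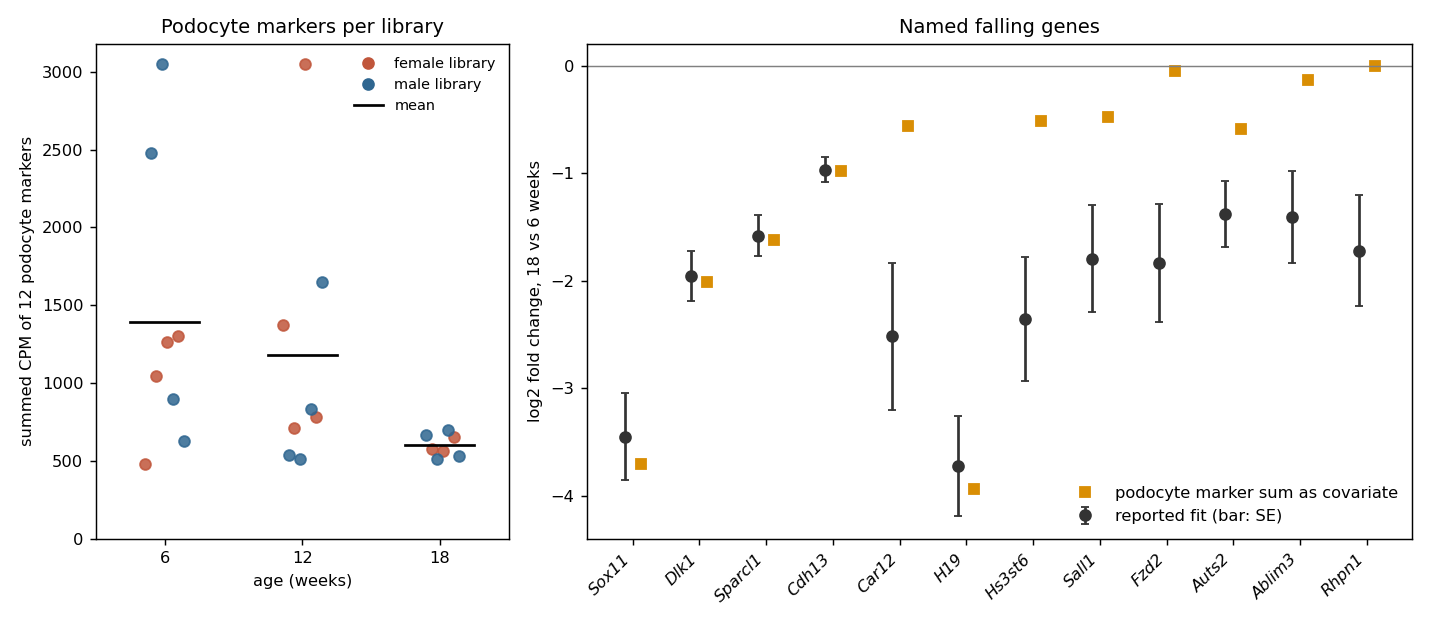
Left, summed level of 12 podocyte markers in CPM for each WT gEC library against age in weeks; right, log2FC of 18 against 6 weeks for 12 named falling genes (circles, with bars for the SE) and the same with the podocyte marker level as a covariate (squares). The marker sum reaches 3050 CPM at 6 and 12 weeks and at most 702 CPM at 18 weeks. With the covariate the 7 podocyte-level genes move to between -0.59 and -0.01. Sox11, Dlk1, Sparcl1, Cdh13 and H19 change little, but their podocyte levels are at most 0.0192 times those in gECs. Nothing is read from this contrast.

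Most basement membrane genes were lower at 18 than at 6 weeks, and the calls fell in the first step. Of 17 genes of the basement membrane list 10 fell (58.8%, against 3.28% of all genes) and none rose. The list had a median log2FC of -0.45, against 0.01 over all tested genes. The same count fell from 6 to 12 weeks (58.8%, against 7.74% of all genes), with a median of -0.49. From 12 to 18 weeks none was called (0 called by edgeR, 0 at an unadjusted p under 0.05, 0 with DESeq2). Col15a1, a collagen of basement membrane zones, had 463, 576 and 755 CPM at 6 weeks, 282, 369 and 439 CPM at 12 weeks and 260, 320 and 386 CPM at 18 weeks (-0.89 ± 0.15, adjusted p = 0.000156). Its 6-week libraries lay above all others. Nid2, a nidogen that links laminin to collagen IV, had 259 to 331 CPM at 6 weeks and 153 to 213 CPM at 18 weeks (-0.76 ± 0.10, adjusted p = 3.35e-06). Col4a1 and Col4a2, the collagen IV chains of most vascular basement membranes, fell by 0.52 ± 0.11 (adjusted p = 0.00133) and 0.58 (adjusted p = 0.000188) on the log2 scale. For Col4a1 the median went from 2058 to 1296 and then 1552 CPM, and its second step was 0.20 (adjusted p = 0.253). Sparc (-0.53), Lamc1 (-0.45), the perlecan gene Hspg2 (-0.44), Lama5 (-0.39), Agrn (-0.34) and Nid1 (-0.27) were the other members called. The summed level of the list was 8771 to 13390 CPM at 6 weeks, 6004 to 9363 CPM at 12 weeks and 6879 to 8432 CPM at 18 weeks. Between 10 and 12 members were lower under the other scalings and DESeq2, 9 with the podocyte covariate and 8 without the 3 libraries over 2000 CPM.

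Interstitial matrix genes gave 3 lower members of 13 (23.1%, against 3.28% of all genes lower), and 5 lower and 1 higher with DESeq2. Fn1, which encodes fibronectin, had 23.8, 40.9 and 69.2 CPM at 6 weeks, 7.29, 13.9 and 20.0 CPM at 12 weeks and 8.68, 11.6 and 23.2 CPM at 18 weeks (-1.81 ± 0.32, adjusted p = 0.000225). The elastin gene Eln fell by 0.95 ± 0.13 (adjusted p = 1.89e-06) and Col5a2, a fibrillar collagen chain, by 0.80 ± 0.16 (adjusted p = 0.00151) on the log2 scale. The counts of Fn1 and Eln were not whole in 97.8% of the gEC libraries. The glycocalyx and proteoglycan list had 26.3% of its 19 genes called, against 4.85% of all genes. In the glycocalyx and proteoglycan list, 1 of 19 rose, the small proteoglycan Bgn (0.92, adjusted p = 0.00286), and 4 fell: Hspg2, the heparan sulfate sulfotransferases Hs3st1 (-0.93) and Ndst1 (-0.38), and the chain elongation enzyme Ext2 (-0.23; adjusted p = 0.265 with the podocyte covariate).

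Among 16 imprinted growth genes 5 fell and 1 rose between 6 and 18 weeks (37.5% called, against 3.28% of all genes lower and 1.56% higher). Besides H19 and Dlk1, Igf2, the fetal growth factor, had 7.21, 10.8 and 16.9 CPM at 6 weeks, 1.65, 3.78 and 6.45 CPM at 12 weeks and 1.72, 3.15 and 7.77 CPM at 18 weeks. Igf2 changed in the first step (-1.63, adjusted p = 0.00013) and had a log2FC of -0.03 in the second. Peg3 and Mest had the reverse course. Peg3, a paternally expressed zinc finger gene, had 97.9, 140 and 208 CPM at 6 weeks, 96.3, 123 and 241 CPM at 12 weeks and 60.8, 81.4 and 142 CPM at 18 weeks, with log2FC of -0.03 and -0.70 (adjusted p = 0.00843). Mest, another paternally expressed gene, had 134, 159 and 181 CPM at 6 weeks, 109, 155 and 210 CPM at 12 weeks and 102, 114 and 132 CPM at 18 weeks, with log2FC of -0.05 and -0.39 (adjusted p = 0.015). Gnas, which encodes the stimulatory G protein alpha subunit, rose by 0.26 (adjusted p = 0.0112). The summed level of the list was 1693 to 2087 CPM at 6 weeks and 1726 to 1950 CPM at 18 weeks. Of 10 genes of the IGF axis, Igf2 and Igf1 (-1.58, adjusted p = 0.0469) were lower (20%, against 3.28% of all genes). The call on Igf1 was lost with the podocyte covariate (adjusted p = 0.132).

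**Figure D3:**
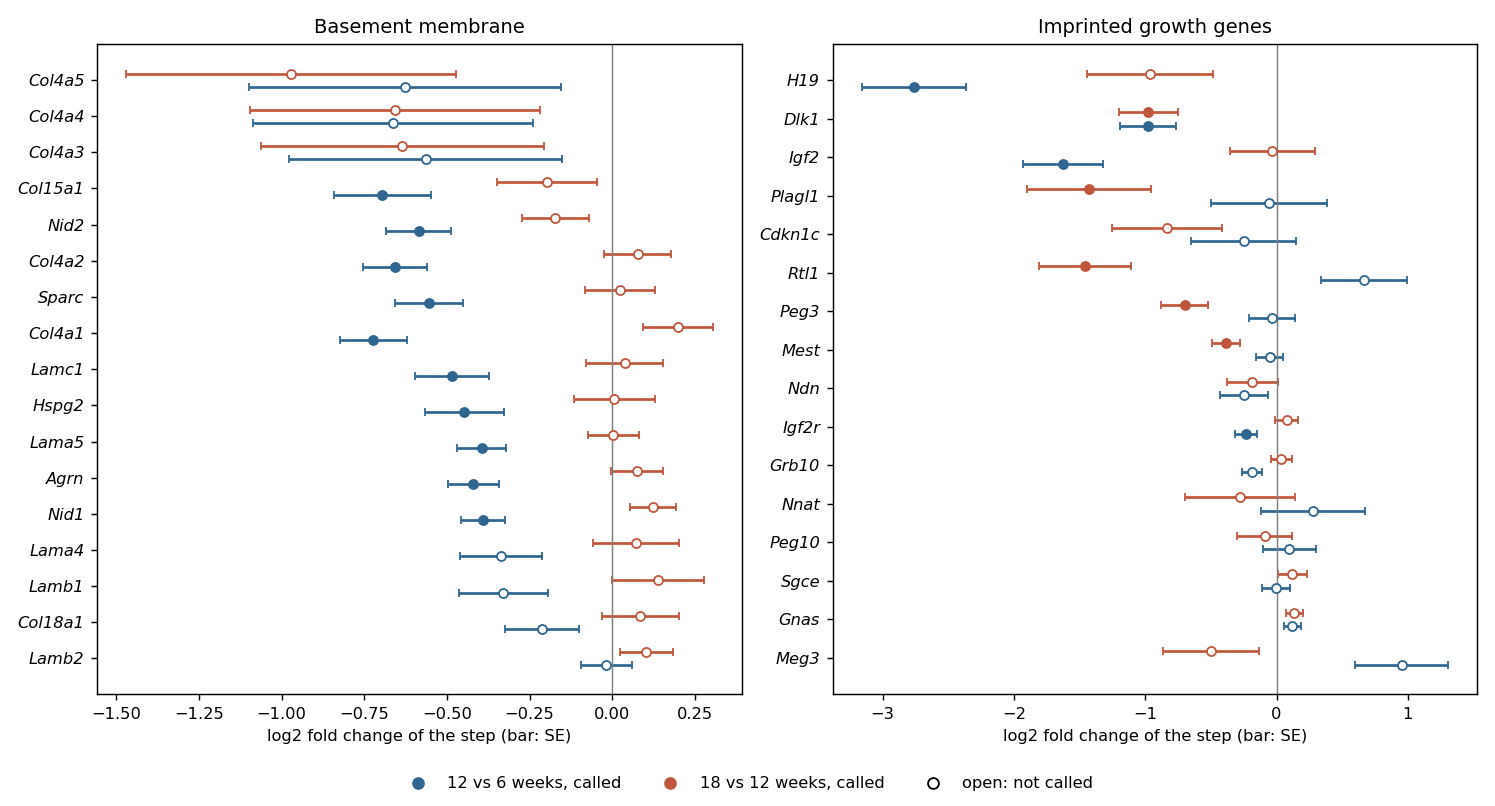
log2FC ± SE of the 12 against 6 week step and of the 18 against 12 week step for 17 basement membrane genes and 16 imprinted growth genes; filled points were called at an adjusted p under 0.05. The 10 called basement membrane genes lie between -0.72 and -0.39 in the first step and between -0.20 and 0.20 in the second, where none was called, and Col4a3, Col4a4 and Col4a5 lie between -0.97 and -0.64 in the second step, uncalled, whereas Peg3 (-0.70) and Mest (-0.39) are called in the second step only and Dlk1 in both.

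Genes of VEGF, angiopoietin and apelin signalling gave 11 calls of 23 in the first step (47.8%, against 16.8% of all genes) and 2 over both (8.7%, against 4.85%). On the TPM scale 5 were lower and 1 was higher in the first step, 1 was higher in the second and 1 was lower over both. With DESeq2 9 were lower and 1 was higher in the first step. Aplnr, the apelin receptor of sprouting and venous endothelium, had 14.2, 33.9 and 60.9 CPM at 6 weeks, 4.37, 8.23 and 19.6 CPM at 12 weeks and 4.78, 6.57 and 16.5 CPM at 18 weeks. It fell by 2.03 ± 0.29 over both steps (adjusted p = 6.91e-06) and had a log2FC of -0.12 in the second. Cd34, a sialomucin of capillary endothelium, fell by 0.28 (adjusted p = 0.041), and these were the members called of 23 at 18 against 6 weeks. With the podocyte covariate Cd34 was no longer called (adjusted p = 0.0826). In the first step 10 of the 23 were lower and 1, Nrp2, was higher (0.30, adjusted p = 0.0165); the lower ones included the ligand genes Vegfc (-1.60, adjusted p = 5.66e-05) and Apln (-0.92, adjusted p = 0.0202) and the receptors Flt4 (-0.23) and Unc5b (-0.47). In the second step Esm1 (0.85, adjusted p = 0.0177), a secreted proteoglycan of endothelial tip cells, Flt4 (0.23) and Plxnd1 (0.24) were higher. Vegfa had a mean of 410 CPM at 6 weeks and 361 CPM at 18 weeks in these libraries (-0.19, adjusted p = 0.368).

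Among 13 markers of other endothelium, 3 were called (23.1%, against 4.85% of all genes): Lyve1 was higher and the elastic fibre genes Fbln2 (-1.15, adjusted p = 0.000755) and Fbln5 (-0.93, adjusted p = 0.00429) were lower. Vwf, the von Willebrand factor gene, had means of 13.4, 5.30 and 6.04 CPM and was lower in the first step (-1.36, adjusted p = 0.00574). Cldn5, the tight junction claudin of endothelium, was the 1 member called of 13 junction genes (7.69%, against 4.85% of all genes). It had 32.6, 43.1 and 52.4 CPM at 6 weeks, 11.6, 18.4 and 37.2 CPM at 12 weeks and 13.4, 16.6 and 23.3 CPM at 18 weeks (-1.28 ± 0.21, adjusted p = 7.35e-05). Its level in podocyte libraries was 9.38 times that in gECs, and with the podocyte covariate it was -1.06 (adjusted p = 0.00121). Lef1, a transcription factor of WNT signalling, fell by 1.07 ± 0.17 (adjusted p = 7.66e-05), the 1 called of 12 (8.33%). It had 9.93 to 17.0 CPM at 6 weeks and 4.19 to 9.83 CPM at 18 weeks. Mfng, a modifier of Notch receptors, fell by 0.32 (adjusted p = 0.00432), the 1 called of 14 Notch genes (7.14%). The shares of the junction, WNT and Notch lists lie near that of all genes, and nothing is read from these counts.

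Coagulation and metabolism gave small groups of calls. F8, the gene of coagulation factor VIII, for which endothelium is the main source, had 458, 473 and 522 CPM at 6 weeks, 473, 630 and 752 CPM at 12 weeks and 616, 757 and 927 CPM at 18 weeks. It rose by 0.61 ± 0.12 (adjusted p = 0.000832). With Procr, the protein C receptor (0.49, adjusted p = 0.0229), F8 made 2 called of 12 (16.7%, against 4.85% of all genes). The call on Procr was lost with the podocyte covariate (adjusted p = 0.0842). Of 19 genes of fatty acid uptake and use, the nuclear receptor gene Pparg rose (0.74, adjusted p = 0.0341), and the transporter gene Slc27a3 (-0.55, adjusted p = 0.00419) and Cd36, the fatty acid translocase (-0.51, adjusted p = 0.0334), fell (15.8% called, against 4.85% of all genes); with the podocyte covariate none of the 3 was called (adjusted p = 0.119, 0.0529 and 0.132). The BMP and TGF-beta list of 19 had 15.8% called, against 4.85% of all genes. Bmper (0.55, adjusted p = 0.0171) and Bmp6 (0.39, adjusted p = 0.0279) were higher and Tgfb1 (-0.25, adjusted p = 0.0281) was lower. The calls on Bmper and Bmp6 were lost with the podocyte covariate (adjusted p = 0.14 and 0.146).

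Several programs gave no call between 6 and 18 weeks. In 12 lists with 205 tested genes edgeR called 0 at an adjusted p under 0.05, with 21 at an unadjusted p under 0.05 and 3 called by DESeq2, and the medians of the lists lay between -0.16 and 0.31. These were the lists of proliferation, interferon response, MHC class I and II, NF-kB and leukocyte adhesion, heat shock, the unfolded protein response, oxidative phosphorylation, cholesterol synthesis, the circadian clock, glucocorticoid response and shear stress. Mki67, the proliferation antigen Ki-67, had 16.1, 49.9 and 74.9 CPM at 6 weeks, 16.2, 35.4 and 50.3 CPM at 12 weeks and 18.2, 36.0 and 58.7 CPM at 18 weeks (-0.40, adjusted p = 0.603). The ranges overlapped at every age. Other lists gave 1 to 4 calls, beside 3.28% of all genes lower: p53 and senescence had 2 lower of 14 (14.3%), YAP/TEAD targets 2 lower of 18 (11.1%), MRTF/SRF targets 1 lower of 24 (4.17%) and ribosomal proteins 1 higher and 3 lower of 80 (5% in all). With the podocyte covariate none of the lower p53 or YAP/TEAD genes was called, and 1 YAP/TEAD target was higher. MRTF/SRF targets then had 3 lower of 24 (12.5%), and ribosomal proteins 1 higher and 0 lower of 80.

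The 2 equal intervals differed for many genes, and the largest differences were of genes whose values were off at 12 weeks alone. The second step minus the first was called in 2854 genes (15.8%), 1146 higher (6.35%) and 1708 lower (9.46%). Rorb, a nuclear receptor gene, had 0.0421 to 0.456 CPM at 6 weeks, 822 to 1320 CPM at 12 weeks and 0.213 to 1.16 CPM at 18 weeks. The mitochondrial transcripts mt-Co2 and mt-Co3, which encode cytochrome c oxidase subunits, went opposite ways, with means of 1.92, 394 and 5.19 CPM and of 736, 17.9 and 701 CPM. The ribosomal protein entry Rps12 had means of 0, 36.9 and 0 CPM, Hist1h4m 4.13, 0 and 4.02 CPM and Rps27rt 19.6, 0.787 and 25.8 CPM. Expected counts that were not whole in over 10% of the gEC libraries marked 77.4% of the 1043 genes with opposite signs and 50.1% of all tested genes. Pseudogene models made up 15.3% of the former and 5.67% of the latter. The step difference was called in 22% of genes in mesangial and 14.8% in podocyte libraries. Mesangial libraries shared 1558 of these step differences with the same sign (55.1% of 2829 in gECs and 37.9% of 4115 in mesangial cells) and podocyte libraries 1096 (38.7% and 39.7% of 2762), with 14 and 37 of opposite sign.

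Other genes also differed at 12 weeks from the ages on either side. Gapdh, the glycolytic enzyme often used as a reference gene, had 244, 298 and 325 CPM at 6 weeks, 137, 173 and 186 CPM at 12 weeks and 224, 253 and 267 CPM at 18 weeks, with log2FC of -0.79 (adjusted p = 1e-12) and 0.55 (adjusted p = 4.37e-08), although the second turned to -0.19 on the TPM scale. The 12-week libraries lay below all others. Il6, the inflammatory cytokine, had medians of 3.95, 8.99 and 2.93 CPM, with log2FC of 1.51 (adjusted p = 0.00153) and -1.88 (adjusted p = 0.000441). Gja5, the gap junction gene of arterial endothelium, had medians of 65.2, 25.4 and 74.8 CPM (-0.95, adjusted p = 0.00401, and 1.16, adjusted p = 0.00109). Fkbp5, a target of the glucocorticoid receptor, had 3.33, 7.83 and 50.6 CPM at 12 weeks against a highest value of 6.47 CPM at 6 weeks and 9.94 CPM at 18 weeks, and was called in the first step (1.72, adjusted p = 0.00793) but not in the second (-1.26, adjusted p = 0.0979). The share of these changes that goes with read length was not tested.

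**Figure D4:**
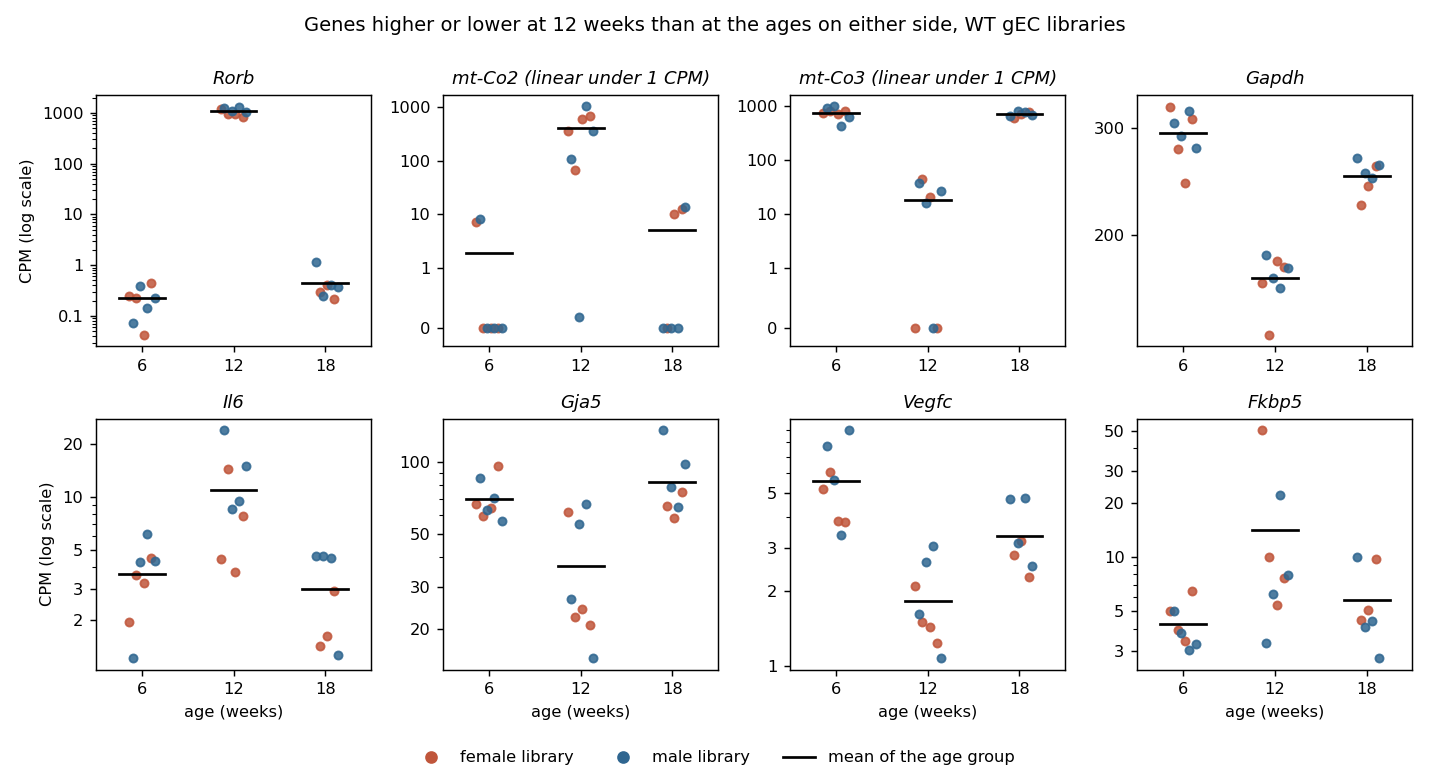
Expression in CPM against age in weeks for 8 genes, each point 1 WT gEC library and the bar the group mean, on log axes that are linear below 1 CPM where libraries were at 0. Rorb exceeds 822 CPM in all 12-week libraries and stays under 1.2 CPM in all others, and Gapdh lies lowest at 12 weeks.

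The course in WT mice was set beside that of BTBR ob/ob mice, which lack leptin and become obese and diabetic, to see which changes over age were found with and without the disease. In ob/ob gECs 1839 genes (10.2%) were called at 18 against 6 weeks (752 higher, 4.17%, and 1087 lower, 6.02%), and 511 were called with the same sign in both genotypes (58.4% of the 875 WT genes and 27.8% of the 1839 ob/ob genes), with 2 of opposite sign. Of the 15 one-direction genes, 11 were also called with the same sign in ob/ob mice. The difference between the genotypes was called in 19 genes (0.105%), 8 higher in WT (0.0443%) and 11 lower (0.0609%). Of the 15, which were chosen by their change in WT gECs, Sparcl1 and the pseudogene C920025E04Rik were among the 19. Sparcl1 had a log2FC of 0.02 in ob/ob gECs, and the difference was -1.60 (adjusted p = 0.000927); C920025E04Rik had 0.30 (adjusted p = 0.381), a difference of 1.43 (adjusted p = 0.0147). Sox11 (-3.83), Dlk1 (-2.32), Thrb (1.16), Aldh2 (1.06) and Trpc1 (0.82) moved in ob/ob mice as they did in WT mice. In the basement membrane list 7 of the 17 genes fell in ob/ob gECs (41.2%, against 6.02% of all genes). Markers of other cells also moved with age in the ob/ob libraries. Of the proximal tubule, distal nephron and podocyte markers 66.7%, 50% and 33.3% were called, against 10.2% of all genes. Of 6 proximal tubule markers 3 were higher and 1 was lower at 18 than at 6 weeks, with a summed level of 39.5 to 52.4 CPM at 6 weeks and 33.4 to 117 CPM at 18 weeks, and of 4 distal nephron markers 2 were higher, with 0.471 to 5.41 and 1.22 to 17.6 CPM. Of the 12 podocyte markers 4 were lower, with 537 to 1593 CPM at 6 weeks and 361 to 1264 CPM at 18 weeks. In WT gECs the proximal tubule sum was 48.7 to 64.4 CPM at 6 weeks and 45.4 to 56.6 CPM at 18 weeks, and the distal nephron sum 1.69 to 5.88 and 0.773 to 7.14 CPM. Of 13 markers of other endothelium 3 were higher at 18 than at 6 weeks in ob/ob gECs (23.1% called). Their summed level there was 655 to 1073 CPM at 6 weeks and 857 to 1389 CPM at 18 weeks. In WT gECs that sum was 513 to 745 and 430 to 580 CPM. The part of RNA from such other cells in the differences between the genotypes was not tested.

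The genes with a called difference included receptors and capillary proteins. Ednrb, the endothelin receptor B gene, was level in WT gECs, with means of 379 ± 71.6, 373 ± 73.8 and 367 ± 50.4 CPM (SD, n = 8, 8 and 7), and had means of 587 ± 224, 205 ± 43.1 and 208 ± 64.6 CPM in ob/ob gECs (difference 1.49, adjusted p = 0.000927). Plvap, the diaphragm protein of fenestrated endothelium, had means of 23.9, 19.4 and 18.7 CPM in WT gECs. In ob/ob gECs its means were 52.8, 160 and 178 CPM (difference -2.10, adjusted p = 0.000101). The mean of Plvap was 349 CPM in the WT mesangial libraries. The paper uses Plvap to mark endothelium of veins and peritubular capillaries, apart from gECs. Fbln5, a marker of other endothelium, also had a called difference (-1.37, adjusted p = 0.0277). Whether other endothelium contributed to these differences was not tested. Cd93, a C-type lectin of endothelial cells, had 79.5, 123 and 153 CPM at 6 weeks and 39.7, 53.7 and 71.0 CPM at 18 weeks in WT gECs (-1.15, adjusted p = 3.37e-07), and 0.33 (adjusted p = 0.126) in ob/ob gECs (difference -1.48, adjusted p = 3.72e-05). Met, the hepatocyte growth factor receptor gene, had -1.20 (adjusted p = 0.00312) in WT and 0.70 (adjusted p = 0.0597) in ob/ob gECs, a difference of -1.91 (adjusted p = 0.00897). Spock2 (difference 1.71), Brinp2 (1.66) and Kcnh1 (1.44) had a more positive change in WT than in ob/ob gECs; of these, Spock2 rose in WT (0.87, adjusted p = 0.0334). In the proliferation list 0 of 28 genes were called in WT. In ob/ob gECs 16 were lower (57.1%, against 6.02% of all genes). The medians were -0.16 in WT and -1.0 in ob/ob gECs. Yet the difference between the genotypes was called by edgeR in 0 genes, with 8 at an unadjusted p under 0.05 and 1 called by DESeq2.

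**Figure D5:**
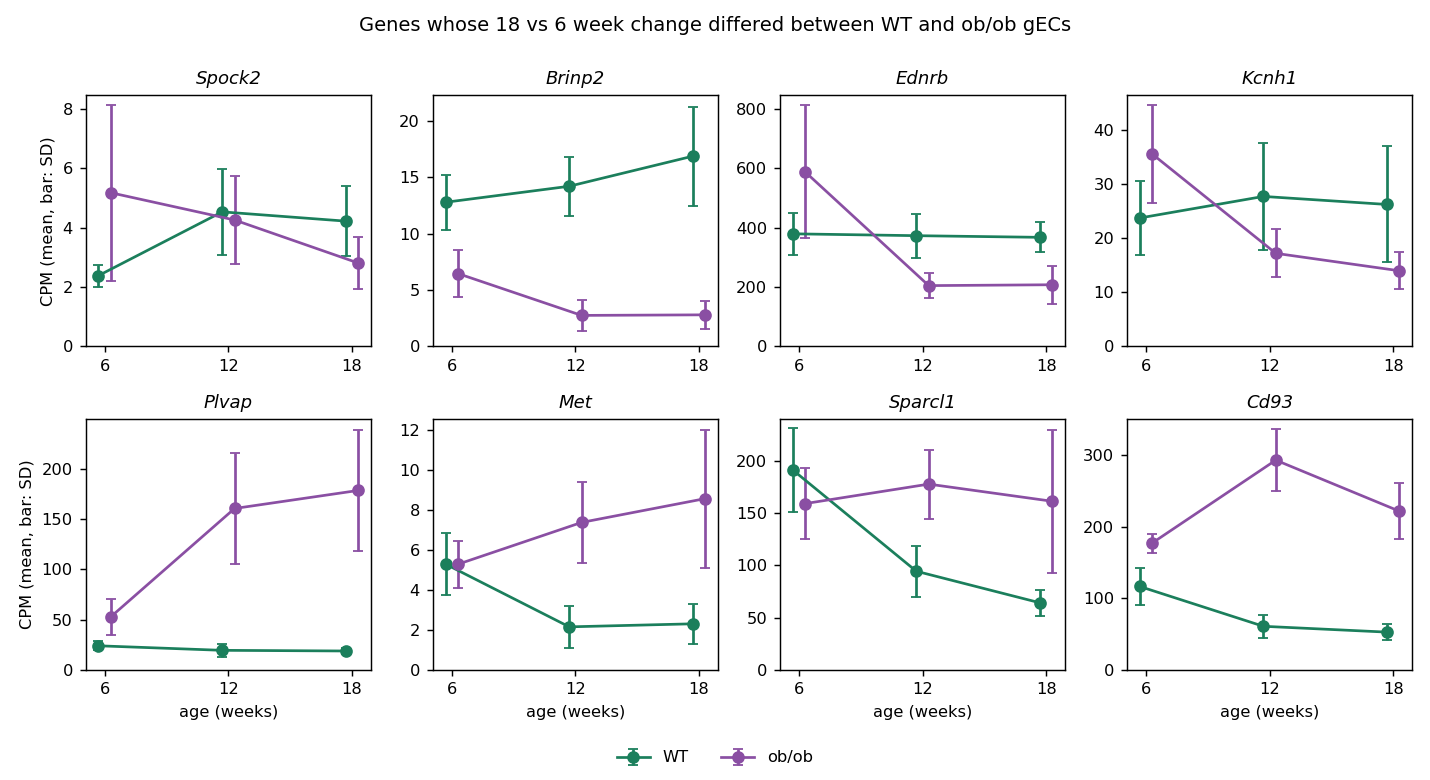
Mean level ± SD in CPM against age in weeks for 8 genes with a called difference between WT and ob/ob gECs (8, 8 and 7 WT libraries). Ednrb stays near 370 CPM in WT and goes from 587 to 208 CPM in ob/ob gECs, and Plvap reaches 178 CPM in ob/ob gECs against 18.7 CPM in WT.

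The sexes were compared within WT mice. In males 185 genes (1.02%) and in females 125 (0.692%) were called at 18 against 6 weeks. The difference between the sexes was called in 1 gene (0.00554%), Gm6265, a pseudogene model whose reads may belong to related genes, with 455 genes (2.52%) at an unadjusted p under 0.05 and 12 called by DESeq2. Gm6265 had 0 to 0.141 CPM in females and 1.80 to 7.46 CPM in males at 6 weeks, and 2.49 to 7.08 CPM in females and 0 to 2.69 CPM in males at 18 weeks. No one-direction gene was called for a difference between the sexes.

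The same comparison was made across cell types, to see which changes over age were larger in gECs. At 18 against 6 weeks 6.32% of 19407 genes were called in mesangial cells and 5.98% in podocytes. The change in gECs was more positive than that in mesangial cells in 85 genes (0.438%) and more negative in 170 (0.876%; 1.31% in all), and against podocytes in 96 (0.495%) and 100 (0.515%; 1.01% in all). Of the 15 one-direction genes 2 were called in mesangial cells and 5 in podocytes, each with the sign seen in gECs. Libraries of the 3 cell types may come from the same mice, which the model does not hold as a term. For the 15 genes the difference from mesangial cells was called in 8 and that from podocytes in 3. Aldh2 differed from both (0.85, adjusted p = 1.21e-06, and 0.59, adjusted p = 0.00117), as did Fam129a (1.58, adjusted p = 0.00577, and 1.65, adjusted p = 0.00288). Trpc1 differed from mesangial cells (0.92, adjusted p = 1.74e-08) and had a log2FC of 0.61 in podocytes. Lyve1 (2.66, adjusted p = 0.00541), Sparcl1 (-1.64, adjusted p = 0.0233) and Sox11 (-3.96, adjusted p = 0.0461) differed from mesangial cells. Thrb rose in all 3 cell types, by 0.89 (adjusted p = 0.000147) in mesangial cells and 0.64 (adjusted p = 0.0104) in podocytes. The medians of the signed log2FC of the 15 were 0.91 in gECs, 0.07 in mesangial cells and 0.33 in podocytes. They mix 10 rising and 5 falling genes, so they do not measure the size of a change. The 15 were chosen by their change in the same gEC libraries, which favours a larger change there. Their medians, the 8 and 3 called differences and the adjusted p-values of those differences are therefore descriptions.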

How the data were processed

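gECs, mesangial cells and podocytes were sorted from WT and BTBR ob/ob glomeruli at 6, 12 and 18 weeks, and RNA was made into libraries with the SMART-Seq Stranded Kit and sequenced as single reads. Quality control by the authors used FastQC 0.11.5, and alignment and quantification used RSEM 1.3.0 with Bowtie2 2.3.3.1 on mm10; the annotation release is not given in the sources used here. The deposited tables, 1 per library, hold expected counts (estimated reads per gene, which split shared reads and need not be whole) and TPM by the authors. Gene symbols, types and positions for 46005 of 46517 entries came from the GRCm38 annotation. No column lacked a sample.

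Expected counts were rounded and fitted with edgeR 4.0.16 (filterByExpr, TMM normalization, quasi-likelihood test) in R 4.3.3, over 46 gEC libraries in 6 groups of genotype and age with a term for sex. Benjamini-Hochberg adjusted p-values were taken over all 18053 genes tested, and a gene was called at an adjusted p under 0.05. The sexes were compared in a fit with 12 groups and the cell types over 69 WT libraries in 9 groups with sex within cell type. CPM values are on the library sizes scaled by TMM, levels are not per length, and ranges are the lowest, median and highest library. Depth was 15.4 to 35.0 M counts, which limits genes under about 1 CPM. A count was taken as whole within 0.005. Steps were tested on simulated data.

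Genes were named if they had a symbol that is no predicted model and a mean of at least 2 CPM at one age: up to 12 rising and 12 falling one-direction genes by the smaller of their 2 steps, filled from the wider count; up to 6 each way per step; up to 4 each way for each difference between groups; up to 4 called members per list, with members needed to explain a pathway; and sorting and cell type markers. C920025E04Rik, 1700052K11Rik, Gm6265, Cd93 beside its list, Zfp423, Nat6 and Ehd2 were named outside that rule after their values were seen. The members and gene lists were chosen with earlier results of these data known.

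Alternatives were DESeq2 1.42.0, its size factors in edgeR, no low-count filter, limma 3.58.1 with trend on log2(TPM + 1), counts thinned to 15.4 M, a replicate block, WT libraries alone, no sex term and each library left out in turn. A further 4 were added after seeing the data: the podocyte covariate, leaving out the 3 libraries with a podocyte marker sum over 2000 CPM, genes with whole counts in at least 90% of the gEC libraries only, and leaving out the 3 12-week libraries that stood apart. No 2 libraries agreed within sampling noise. The labels matched the sex-linked genes in 23 of 23 libraries. Replicate numbers did not pair the samples (correlations of deviations between -0.373 and 0.409, 6 of 22 over 0.1), so no pairing was used.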

Additional observations from a re-analysis of the deposited data

Results flagged for a closer look

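In groups of 7 or 8 libraries, a single library far from the rest was looked for in 87 groups of values, and 6 had one at the 5% level, where chance gives about 1 in 20. Gnao1 had 0.802 CPM in female 2 at 6 weeks, below all others of its age, and Trpc1 had 6.94 CPM in male 1 at 6 weeks. Female 2 at 12 weeks was low for both Stmn2 (25.4 CPM) and Sparcl1 (44.7 CPM); it is one of the 3 libraries that stood apart on the first principal component. Female 4 at 6 weeks was the deepest of its group with 35.0 M counts. Female 3 had the highest podocyte marker sum of the 12-week libraries, 3050 CPM.

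Differences between groups were called as follows. The change from 6 to 18 weeks was more positive in WT than in ob/ob gECs for Spock2 (1.71), Brinp2 (1.66), Ednrb (1.49) and Kcnh1 (1.44), and more negative for Plvap (-2.10), Met (-1.91), Sparcl1 (-1.60) and Cd93 (-1.48). Spock2 and Cd93 counts were not whole in 100% and 97.8% of the gEC libraries. The pseudogene model Gm6265 differed between males and females by -9.18 ± 1.28 (edgeR adjusted p = 0.000243).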

How the results depend on the processing

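Of 5533 values of named genes under the alternatives, 5154 kept direction and side of the threshold, 377 lost their call and 2 changed sign, both on the TPM scale in the 12 to 18 week step: Slc2a3 (-0.17) and Gapdh (-0.19). With genes of whole counts only, which tests fewer genes, calls went to 1098 for 12 against 6 weeks, 428 for 18 against 12, 554 for 18 against 6, 876 for the step difference and 7 one-direction genes. That fit left out, among other named genes, Stmn2, Cdh13, Esr2, Nid1, Nid2, Sparc, Lef1, Mest, Gnas and Bgn. Without the 3 podocyte-rich libraries 18 against 6 weeks gave 559, and without the 3 12-week libraries that stood apart 12 against 6 gave 1892. The WT minus ob/ob difference was called in 55 genes with DESeq2, 8 on the TPM scale and 43 with the podocyte covariate. One-direction genes numbered 9 without the low-count filter and 8 on the TPM scale. With WT gEC libraries alone, calls were 2358 for 12 against 6 weeks, 1164 for 18 against 12 and 588 for 18 against 6. The step difference then had 2118 calls, the wider count 257 genes and the one-direction count 13. DESeq2 called 12 genes for the sex difference, 485 for gECs minus mesangial cells and 388 for gECs minus podocytes; the TPM scale gave 408 for gECs minus mesangial cells. The cause of these moves was not tested. Some of these settings also held fewer genes or libraries.

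Leaving out 1 library at a time gave 2265 to 3731 calls for 12 against 6 weeks, 1232 to 2007 for 18 against 12, 589 to 954 for 18 against 6, 2007 to 3420 for the step difference, 13 to 26 for WT minus ob/ob, 1 to 1 for the sexes, 246 to 409 for the wider count and 8 to 17 one-direction genes, with 8 without male 2 or without male 4 at 18 weeks.

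The replicate block, which no source ties to shared mice, gave 2875 calls for 12 against 6 weeks, 1663 for 18 against 12, 824 for 18 against 6, 2744 for the step difference, 16 for WT minus ob/ob, 171 for gECs minus mesangial cells, 152 for gECs minus podocytes and 13 one-direction genes, 12 of them shared with the 15; 4 of 23 libraries matched their own number best.

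The share of higher calls moved by over 10 points on the TPM scale for 12 against 6 weeks (64.9% against 53.8%), one-direction genes (50% against 66.7%) and gECs minus podocytes (35.8% against 49%, and 35.1% with DESeq2), and for the sexes with DESeq2 (41.7% against 0%). Of the 15 one-direction genes 1700052K11Rik was called in both steps under 6 of 35 settings, Sparcl1 and Gnao1 under 13, Slc2a3 under 17, Fam129a and Cd84 under 22, and the others under 29 or more. The shallower 18-week libraries limit genes of low level such as Lyve1 and H19.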
